A study of Mus musculus with 12 samples.

Results

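Insig1, Cyp51, Idi1, Fdps, Fdft1, Sqle, Lss and Hmgcs1 are genes of cholesterol synthesis and of its control by sterols. These 8 genes were chosen by name, as genes of this pathway, with earlier results of these data known. Their rows were taken from the table of gene expression across its 4 groups. Of the 8, 7 were found among the 26061 genes of the table, and all 7 were among the 14185 genes with enough reads to be tested. Hmgcs1 was not analysed here. The cells were mouse embryonic stem cells (ESCs) with a knockout of Tet2, into which either wild-type (WT) TET2 or a catalytic mutant of TET2 (H1304Y, D1306A) had been stably introduced with a PiggyBac transposon. Every library came from cells infected with a lentiviral shRNA against Setdb1 and then drug-selected (the paper names puromycin or hygromycin). Both sides of each comparison were therefore SETDB1-depleted, and no library from control shRNA cells was used here. Each rescue line was grown without feeders in 2i (naïve ESCs), a medium with N2, B27, LIF, the Mek inhibitor PD0325901 and the GSK3b inhibitor CHIR99021, or in serum medium with fetal bovine serum and LIF (primed ESCs). Poly(A) RNA was sequenced from 3 libraries of each of the 4 groups. Base medium, serum and inhibitors changed together between naïve and primed ESCs, and their effects cannot be told apart.

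Cells make cholesterol from acetyl-CoA through mevalonate and isoprenoid units to squalene, which is oxidised, closed into lanosterol and then trimmed and reduced to cholesterol. When sterols run low in the membrane of the endoplasmic reticulum, the SREBP transcription factors are carried to the Golgi by SCAP, cut by the S1P and S2P proteases, and enter the nucleus to activate most genes of the pathway. INSIG proteins hold SCAP back when sterols are plentiful, and Insig1 is itself an SREBP target, so its transcript is widely used as a readout of this feedback.

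Depth was 8066662 to 21335933 reads in genes per library, and the 7 genes were covered by 202 (Fdps) to 5417 (Insig1) reads in a library. Values below are the deposited variance-stabilised expression on a log2 scale, on which the median of all tested genes lay between 8.21 and 8.30 in every library. Expression of Pou5f1, Sox2 and Nanog, which define pluripotent cells, was 12.52 or more in every group mean. The Setdb1 transcript had 114 to 585 reads in a library, and without control cells its depletion cannot be checked here. Tet2 had 1624 to 65641 reads, from the construct and the targeted locus together. It was higher in the WT line than in the mutant line, by log2 differences of 2.16 (naïve) and 1.84 (primed). At the protein level the paper reports similar amounts of WT and mutant TET2 in the rescue lines by Western blot. Naïve minus primed differences of Tet2 were -1.55 in the WT line and -1.87 in the mutant line. Nothing in the labels says that the 3 libraries of a group came from separate cultures, so p-values measure the spread between these libraries, which may be technical. In such bulk samples fewer cells with a transcript and less transcript per cell cannot be told apart.

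Promoter windows reaching from 250 bases before to 50 bases after the annotated start were matched for 5 of the 8 genes in RefSeq (GRCm38.p6), namely Hmgcs1, Insig1, Cyp51, Idi1 and Lss. The windows were searched on both strands for TCACNCCAC, a spelling of the sterol regulatory element bound by SREBP, for CACCCCAC, which lies within that spelling, and for CCAAT, the site of NF-Y, a factor known to act beside SREBP at promoters of this pathway. All of the 5 windows held CCAAT, as did 37.4% of 32851 windows of the genome. TCACNCCAC was found in the Hmgcs1 window, from -137 to -129 as TCACCCCAC, and in 1.24% of all windows. CACCCCAC was found within the same site, from -136 to -129, and in 2.87% of all windows. Among 13 other enzymes of the pathway, TCACNCCAC was in the windows of 0, CACCCCAC of 1 (Acat2) and CCAAT of 12. Counted by gene, these were in 1.44%, 3.30% and 41.1% of all genes with windows. Other spellings of the element were not searched, so a window without a match may still hold one. The 250 bases before the start are printed for the 4 of these genes with expression values, Insig1 and Cyp51, which had the 2 widest differences between media, Idi1, and Lss, for which no difference was called. Capitals mark CCAAT, or ATTGG where it lies on the other strand.
Insig1: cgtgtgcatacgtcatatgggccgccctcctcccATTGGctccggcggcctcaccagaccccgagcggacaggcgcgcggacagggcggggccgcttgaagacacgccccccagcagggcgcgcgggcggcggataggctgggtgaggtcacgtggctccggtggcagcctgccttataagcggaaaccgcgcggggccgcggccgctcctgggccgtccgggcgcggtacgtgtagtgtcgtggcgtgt
Cyp51: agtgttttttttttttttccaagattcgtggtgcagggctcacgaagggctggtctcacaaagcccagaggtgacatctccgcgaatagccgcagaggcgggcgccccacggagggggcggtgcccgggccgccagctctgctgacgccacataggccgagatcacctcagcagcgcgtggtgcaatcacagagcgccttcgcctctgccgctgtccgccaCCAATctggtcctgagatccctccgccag
Idi1: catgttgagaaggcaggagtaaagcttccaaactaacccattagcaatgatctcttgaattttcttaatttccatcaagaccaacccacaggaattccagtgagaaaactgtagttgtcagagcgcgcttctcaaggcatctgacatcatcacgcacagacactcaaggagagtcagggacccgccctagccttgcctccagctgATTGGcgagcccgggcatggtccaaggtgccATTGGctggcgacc
Lss: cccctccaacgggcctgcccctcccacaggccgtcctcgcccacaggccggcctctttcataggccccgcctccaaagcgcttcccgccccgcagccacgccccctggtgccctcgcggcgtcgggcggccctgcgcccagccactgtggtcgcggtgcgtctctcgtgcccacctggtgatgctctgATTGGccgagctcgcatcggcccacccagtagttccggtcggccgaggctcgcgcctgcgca
The Insig1 stretch is chr5:28071162-28071411 on the plus strand, and its CCAAT lies far from the start, from -216 to -212. The Cyp51 stretch is chr5:4104698-4104947 on the minus strand, with the site from -29 to -25. For Idi1 the stretch is chr13:8885356-8885605 on the plus strand, with sites from -45 to -41 and from -14 to -10. For Lss it is chr10:76531355-76531604 on the plus strand, with the site from -62 to -58. A match is a description of the letters, and the site stood before the start both in genes that differed between media and in Lss.

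Most of the 7 genes were expressed more highly in naïve than in primed ESCs. With WT TET2, 5 of 7 were called higher in naïve ESCs and 0 lower, by limma at an adjusted p under 0.05. With mutant TET2, 4 of 7 were called higher and 0 lower. In comparison, the share of all tested genes called higher in naïve ESCs was 18.6% in the WT line and 18.3% in the mutant line, within 35.9% and 35.2% called in either direction. The median difference over the 7 genes was 0.84 with WT and 0.82 with mutant TET2, against 0.01 and -0.01 over all tested genes. Together the 7 genes took 1051 to 1220 RPM (reads after scaling each library to 1000000 gene reads) in the 6 naïve libraries and 532 to 689 in the 6 primed libraries.

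**Figure D1:**
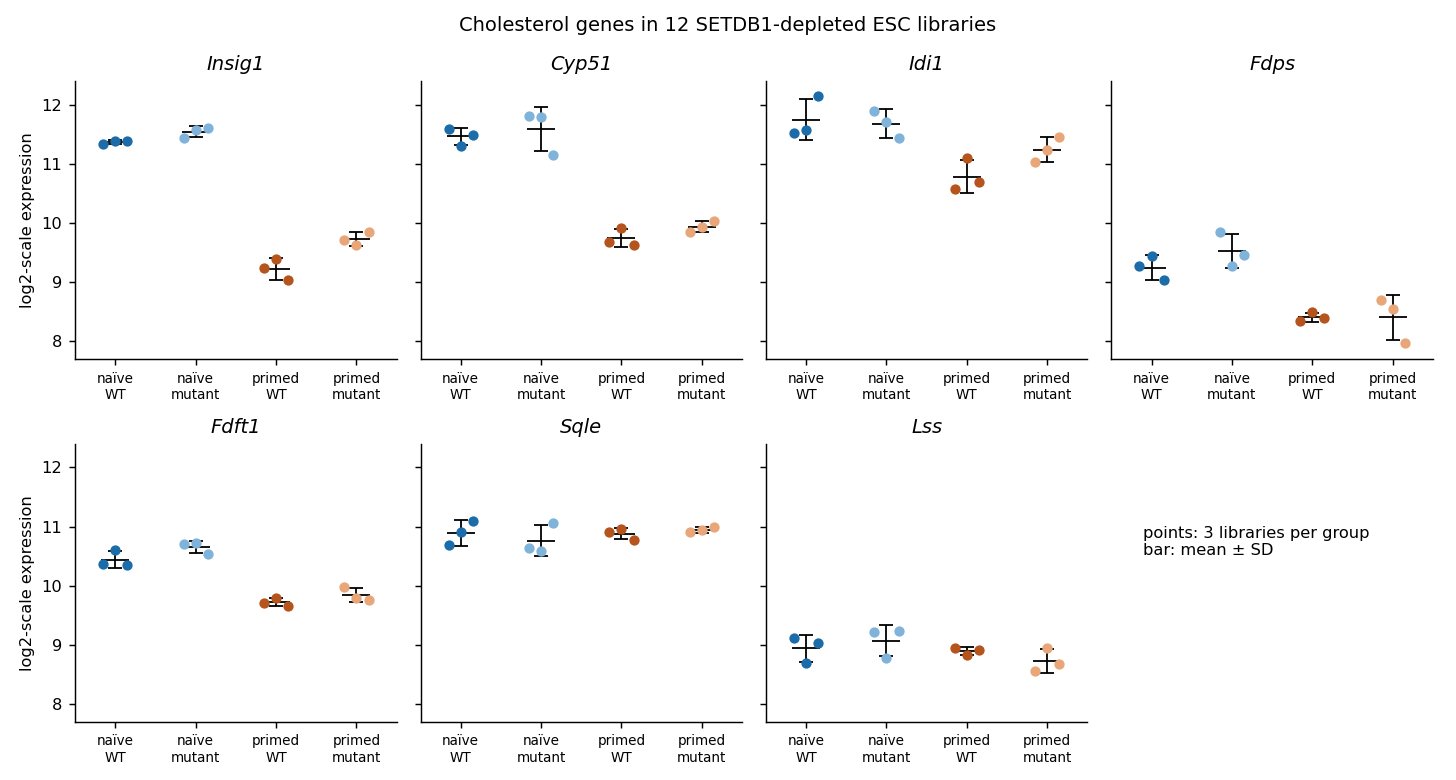
Expression of the 7 genes on the deposited log2 scale (vertical axis) in each library, by group (horizontal axis), with points for the 3 libraries of a group and bars for the mean and SD. For Insig1 the naïve libraries span 11.33 to 11.61 and the primed libraries 9.03 to 9.85, whereas the libraries of Sqle overlap across all 4 groups.

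Insig1, which retains SCAP in the endoplasmic reticulum (mm9 chr5:28397952-28405201, plus strand, ENSMUSG00000045294.9), had the widest difference of the 7. In naïve ESCs it stood at 11.33, 11.39 and 11.39 with WT TET2 and at 11.44, 11.58 and 11.61 with the mutant. In primed ESCs it stood at 9.24, 9.39 and 9.03 with WT TET2 and at 9.72, 9.62 and 9.85 with the mutant. All naïve libraries were high and all primed libraries low, with no overlap. The log2 difference between media was 2.15 (SE 0.14) with WT TET2, or 4.42-fold, and 1.82 (SE 0.14) with mutant TET2, or 3.52-fold (limma, adjusted p = 2.63e-08 and 1.60e-07). A copy of 76.7% of the Insig1 transcript, of 97.9% identity, lies on chromosome 3, outside annotated genes, and its part in the Insig1 value was not tested.

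Cyp51, which removes the 14-alpha methyl group of lanosterol (mm9 chr5:4081145-4104746, minus strand, ENSMUSG00000001467.4), followed. Its naïve values were 11.59, 11.31 and 11.49 with WT TET2 and 11.81, 11.79 and 11.15 with the mutant. The primed values were 9.68, 9.91 and 9.63 with WT TET2 and 9.85, 9.94 and 10.03 with the mutant, all more than 1 unit below the lowest naïve library. Expression was thus 3.29-fold higher in naïve ESCs with WT TET2 (log2 difference 1.72, SE 0.18) and 3.12-fold higher with mutant TET2 (1.64, SE 0.18; limma, adjusted p = 1.97e-06 and 3.44e-06). No close copy of its transcript was found elsewhere in mm9.

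Fdps and Fdft1 stand next to each other in the pathway, Fdps making farnesyl pyrophosphate and Fdft1 joining 2 of these into squalene. Both rose in naïve ESCs of both lines. Fdps (mm9 chr3:88897514-88905881, minus strand, ENSMUSG00000059743.7) stood at 9.27, 9.44 and 9.03 in naïve and 8.34, 8.49 and 8.39 in primed ESCs with WT TET2. With the mutant it stood at 9.84, 9.28 and 9.46 in naïve and 8.70, 8.55 and 7.97 in primed ESCs. Every naïve library lay above every primed one, with log2 differences of 0.84 (SE 0.20) with WT and 1.12 (SE 0.20) with mutant TET2 (limma, adjusted p = 0.00416 and 0.000494). Fdps counts are uncertain, since 96.4% of its transcript has close copies elsewhere, the nearest of 98.8% identity in the pseudogene Gm3571, and reads with equally good positions were placed at random.
Fdft1 (mm9 chr14:63763990-63796630, minus strand, ENSMUSG00000021273.9) stood at 10.37, 10.61 and 10.35 in naïve and 9.71, 9.80 and 9.66 in primed ESCs with WT TET2. The mutant values were 10.71, 10.72 and 10.53 in naïve and 9.97, 9.79 and 9.75 in primed ESCs. Here too the media did not overlap. The log2 difference was 0.72 (SE 0.14) in the WT line and 0.82 (SE 0.14) in the mutant line (limma, adjusted p = 0.000945 and 0.000353). Strand was not kept in these libraries, and 769 exon bases of Fdft1 are shared with Ctsb, a lysosomal protease gene on the other strand. Ctsb was itself at 11.40 ± 0.16 and 11.68 ± 0.28 in naïve and 10.33 ± 0.08 and 10.22 ± 0.19 in primed ESCs with WT and mutant TET2 (SD, n = 3 each), and its part in the Fdft1 value was not tested. A copy of 56.3% of the Fdft1 transcript, of 97.4% identity, lies in the pseudogene Gm6781.

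Idi1, which interconverts the isoprenoid units that Fdps joins (mm9 chr13:8884852-8891641, plus strand, ENSMUSG00000058258.6), was called with WT TET2 but not with the mutant. With WT TET2 it stood at 11.52, 11.58 and 12.14 in naïve and 10.57, 11.10 and 10.69 in primed ESCs, without overlap. With the mutant the naïve values of 11.90, 11.71 and 11.43 overlapped the primed values of 11.03, 11.23 and 11.45. The log2 difference was 0.96 (SE 0.20; limma, adjusted p = 0.00139) with WT and 0.44 (SE 0.20; limma, adjusted p = 0.0935) with mutant TET2. Quantile normalization took the mutant value past the threshold (difference 0.50; limma, adjusted p = 0.0445), and across the alternatives the adjusted p ran from 0.0445 to 0.294. Idi1 counts are also uncertain, because 86.6% of the transcript has close copies, the nearest of 99.3% identity in the pseudogene Gm13502.

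Sqle and Lss act in succession, Sqle oxidising squalene and Lss closing the resulting epoxide into lanosterol. Neither was called in either line. Sqle (mm9 chr15:59146632-59162747, plus strand, ENSMUSG00000022351.8) stood at 10.68, 10.90 and 11.10 in naïve and 10.90, 10.96 and 10.78 in primed ESCs with WT TET2. With the mutant the values were 10.64, 10.59 and 11.06 in naïve and 10.90, 10.94 and 11.00 in primed ESCs. The primed libraries lay within the naïve range in both lines, and the difference was 0.01 with WT (95% interval -0.32 to 0.35; limma, adjusted p = 0.968) and -0.19 with mutant TET2 (-0.52 to 0.15; adjusted p = 0.381).
Lss (mm9 chr10:75994333-76019883, plus strand, ENSMUSG00000033105.6) stood at 9.12, 8.69 and 9.03 in naïve and 8.94, 8.82 and 8.92 in primed ESCs with WT TET2. The mutant values were 9.21, 8.77 and 9.24 in naïve and 8.56, 8.95 and 8.67 in primed ESCs. Media overlapped in both lines. The difference was 0.05 in the WT line (95% interval -0.32 to 0.42; limma, adjusted p = 0.848) and 0.35 in the mutant line (-0.03 to 0.72; adjusted p = 0.138). Close copies were found for neither transcript, and 381 exon bases of Lss are shared with 4930483K19Rik, a noncoding gene on the other strand with 11 to 55 reads in a library.

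**Figure D2:**
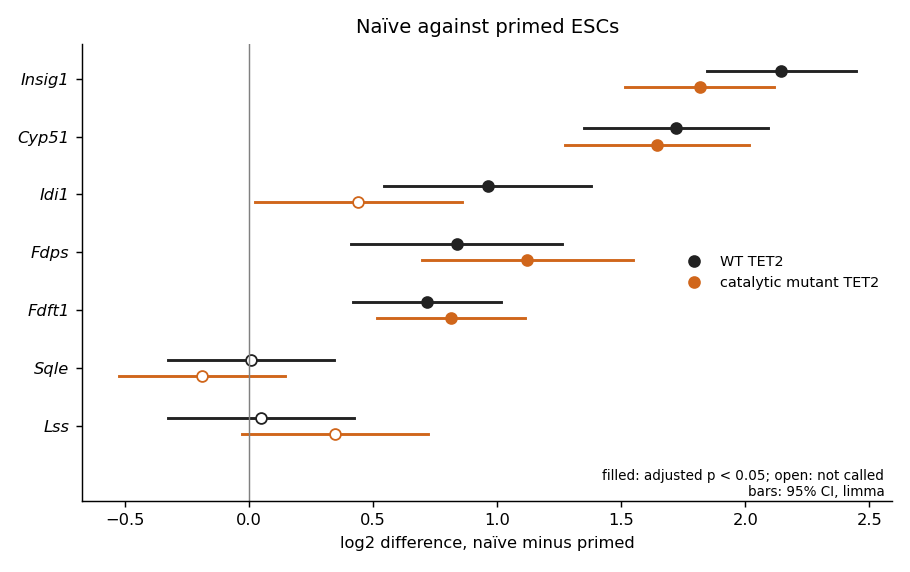
Difference in log2-scale expression between naïve and primed ESCs (horizontal axis) for each of the 7 genes (vertical axis) with WT or catalytic mutant TET2, with 95% intervals from limma and filled points for genes called at an adjusted p under 0.05. Insig1 and Cyp51 lie between 1.64 and 2.15 in both lines, and the intervals of Sqle hold 0.

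Naïve and primed libraries did not overlap for 5 of 7 genes with WT TET2 and 4 of 7 with mutant TET2, beside 50.0% and 43.5% of all tested genes. Exact two-sided permutation tests of 3 libraries against 3 gave p = 0.1 for each of these, which is the smallest they can give. Leaving out any library of a comparison kept 5 genes called with WT and 4 with mutant TET2. The ordering of the 4 groups differed between genes. Mutant naïve ESCs had the highest mean and WT primed ESCs the lowest for Insig1, Cyp51 and Fdft1, and only for Insig1 did no neighbouring groups overlap. Every pair of neighbours overlapped for Sqle, Idi1 and Lss.

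Levels of different genes were compared as RPKM, the RPM value divided by the kilobases of the longest coding transcript. On this scale Idi1 had the highest mean of the 7 in naïve ESCs, 100 ± 22.9 in the WT line and 95.7 ± 13.7 in the mutant line (SD, n = 3 each). Insig1 came next at 81.9 ± 1.37 and 93.7 ± 7.85, and its range overlapped that of Idi1 with the mutant but not with WT TET2. Cyp51 at 59.2 ± 6.46 and 65.9 ± 14.3 and Sqle at 56.5 ± 6.98 and 52.6 ± 11.5 overlapped in both lines. In primed ESCs the order changed, with Sqle at 57.8 ± 2.30 and Idi1 at 52.6 ± 10.3 highest with WT TET2 and not separated from each other. Insig1 stood at 18.5 ± 2.03 and Cyp51 at 18.2 ± 1.77 in the same group, and these levels overlapped. Lss was the least abundant of the 7 in each group, at 7.13 to 9.29. Over all annotated exons in place of the longest transcript, Sqle had 28.1 and Lss 3.60 RPKM in naïve ESCs with WT TET2, so the place of Sqle among the 7 depends on the transcript model. The places of Idi1 and Fdps are uncertain too, since 86.6% and 96.4% of their transcripts have close copies. For Insig1 and Fdft1 these shares were 76.7% and 56.3%.

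**Figure D3:**
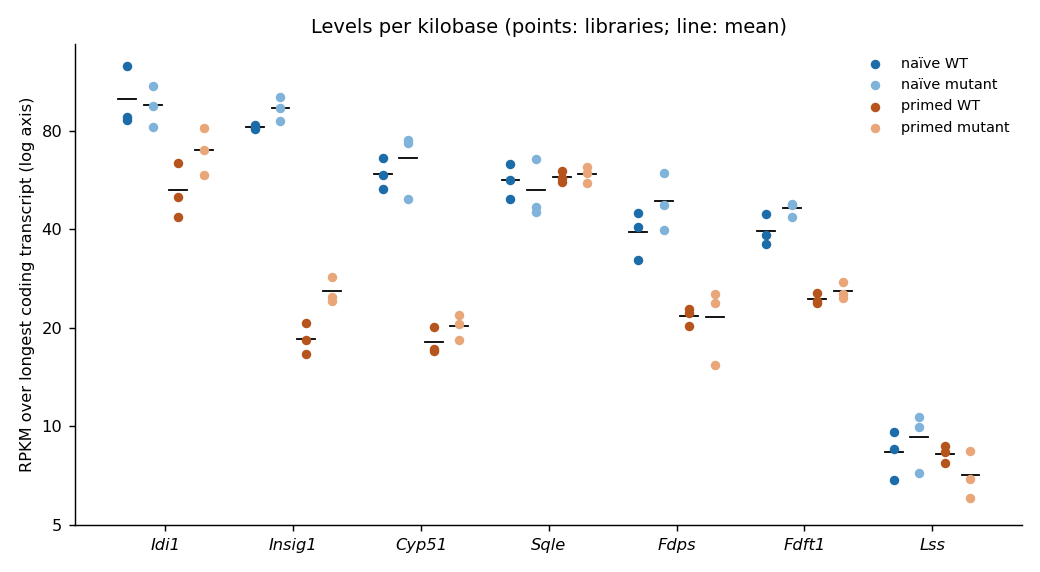
RPKM over the longest coding transcript (vertical log axis) of the 7 genes (horizontal axis), with a point for each library and a line for the mean of 3. Insig1 and Cyp51 are close to Sqle or above it in naïve ESCs and well below it in primed ESCs, and Lss is lowest throughout.

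The medium differences of the 2 rescue lines were compared as an interaction. It was called for 0 of 7 genes and for 0% of the 14185 genes by limma, with 0 of 7 and 489 of 14185 at an unadjusted p under 0.05, and limma-voom on recovered reads also called 0. The widest interaction among the 7 was that of Idi1, at 0.52 (95% interval -0.07 to 1.11; limma, adjusted p = 0.976). Insig1 had 0.33 (-0.09 to 0.75) and Cyp51 0.08 (-0.45 to 0.60). A lower rise of Idi1 with mutant TET2 was therefore not shown, although it was called in only 1 line.

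Many other enzymes of the pathway moved in the same direction. In this and the following lists, genes that rose or fell are those called higher or lower in naïve ESCs. The 13 further enzymes reported here do not make up the whole pathway. Of these, 8 rose and 0 fell with WT TET2, and 6 rose and 0 fell with mutant TET2. By direction alone 12 of 13 were higher in each line. Of all tested genes 18.6% were called higher with WT and 18.3% with mutant TET2, within 35.9% and 35.2% called in either direction. Each list count is to be read against these shares. Dhcr7, which reduces the sterol B ring near the end of the pathway, had the widest difference, at 1.65 with WT and 1.84 with mutant TET2. The C4 demethylation enzyme Msmo1 (listed under its older symbol Sc4mol) rose by 1.48 and 1.15, and the C14 reductase Tm7sf2 by 1.42 and 1.43. The median over the 13 was 0.62 and 0.49.
Together with the 6 enzymes among the chosen genes, 12 of 19 enzymes rose with WT TET2 and 9 of 19 with the mutant. Between acetyl-CoA and squalene, with Ggps1 of a side branch counted in, 3 of 8 rose with WT and 2 of 8 with mutant TET2. From squalene to cholesterol 9 of 11 rose with WT and 7 of 11 with mutant TET2. Among these 19, the enzymes not called with WT TET2 were Acat2, Mvk, Pmvk and Mvd before squalene, Ggps1 on the side branch, and Sqle and Lss after squalene. The difference between both stretches of the pathway was not tested.

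**Figure D4:**
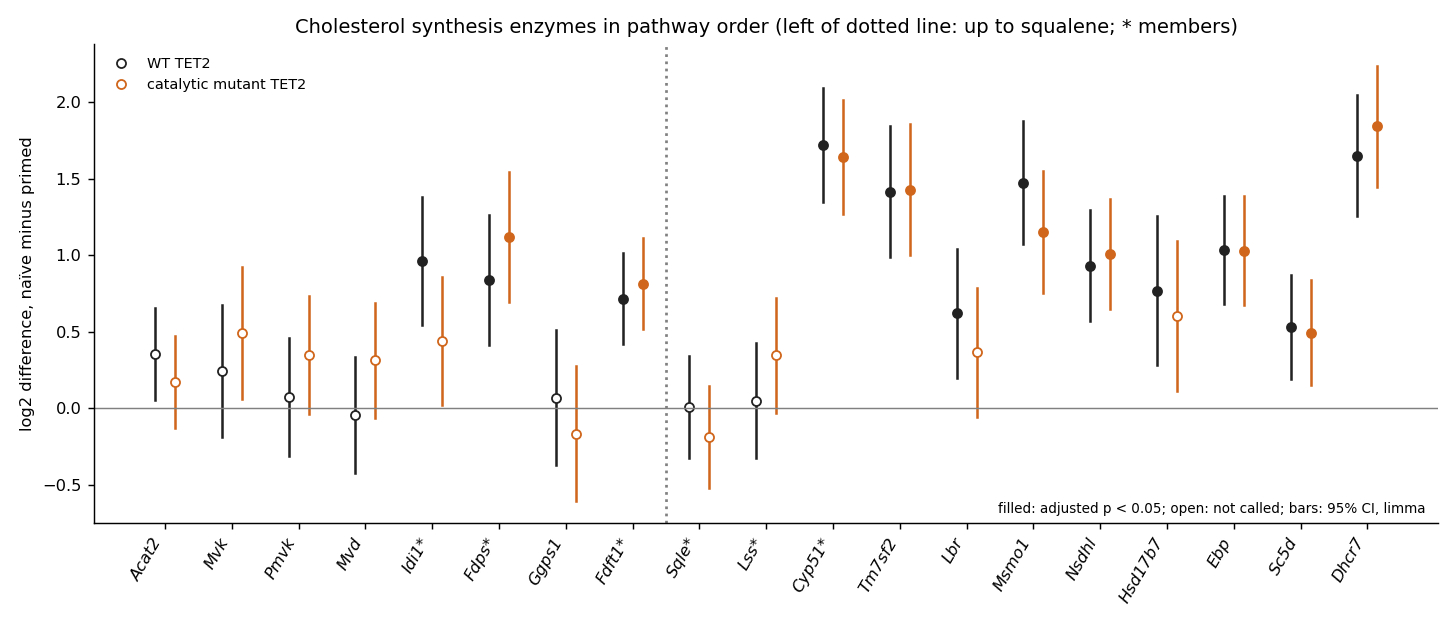
Difference in log2-scale expression between naïve and primed ESCs (vertical axis) for 19 cholesterol synthesis enzymes in the order of the pathway (horizontal axis), with 95% intervals from limma, filled points for genes called at an adjusted p under 0.05 and asterisks for the 6 chosen enzymes. Ggps1, an enzyme of a side branch, is placed before Fdft1. From Cyp51 to Dhcr7 every enzyme shown is called with WT TET2, at 0.53 to 1.72, whereas Sqle and Lss lie at 0.01 and 0.05.

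Genes of sterol sensing did not move together. Of the 6 tested, 1 rose and 2 fell with WT TET2, and 2 rose and 0 fell with the mutant (1 fell when libraries were centred on the median). By direction alone 3 were higher and 3 lower in naïve ESCs of each line. Srebf1, the SREBP known above all for lipogenic targets, rose by 0.57 and 0.85, and Srebf2, the SREBP of cholesterol genes, had differences of 0.37 (not called) and 0.71 (called). The sensor Scap and the S1P gene Mbtps1 fell with WT TET2, by differences of -0.71 and -0.57. Insig2, the paralogue of Insig1, had -0.04 and -0.11 and was not called.
For uptake and transport inside the cell, 4 of 6 genes reported here rose with WT TET2 and 5 of 6 with the mutant, and 0 fell. Soat1 was lower in naïve ESCs of both lines but not called (-0.25 and -0.28). Lipa, the lysosomal lipase that frees cholesterol from lipoproteins, rose by 1.98 and 1.45, and Npc2, which binds it inside the lysosome, by 1.94 and 1.99. Scarb1, the HDL receptor, and Stard4, a sterol carrier, also rose in both lines.
Efflux genes under the sterol-sensing receptor LXR are known to respond to high sterols. The list of LXR and efflux genes held 4 tested ones, Abca1, Abcg1, Mylip and Nr1h2, a gene of LXR itself. Among them 3 of 4 rose with WT TET2 and 2 of 4 with the mutant, led by the cholesterol exporter Abcg1 at 2.29 and 2.44. Nr1h2 had -0.27 and -0.35 and was not called. Of the 11 fatty acid synthesis genes, 8 rose with WT TET2 and 7 with the mutant, and 0 fell. The WT count was 7 with centring on the median or quantile normalization. The mutant count was 8 with quantile normalization or limma-voom on recovered reads. The desaturase genes Scd2 (3.04 and 2.68) and Scd1 (2.84 and 3.02) differed more than any of the 7 chosen genes. Fasn, the fatty acid synthase, had -0.02 and 0.12.

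Markers of cell state moved with the media as well. All 5 tested primed-state genes of 6 were lower in naïve ESCs in both lines, with Dnmt3l at -5.18 and -5.17. Among 8 pluripotency genes, Tfcp2l1 rose (2.33 and 2.77) and Utf1 and Zfp42 fell in both lines, and Nanog was called higher with WT TET2, a call lost under quantile normalization. The summed level of this list was 3861 to 4858 RPM in naïve and 3813 to 4265 in primed libraries. Krt8, Krt18 and Eomes, the 3 of 6 trophoblast genes tested, fell in naïve ESCs, and the list summed to 3.83 to 7.23 RPM in naïve and 22.1 to 51.4 in primed libraries, with Elf5 and the primed-state gene Fgf5 at 0 reads in all naïve libraries and Cdx2 and Hand1 at 3 reads or fewer in the sum of any naïve group.
Of 7 primitive endoderm genes 3 were tested and Dab2 fell in both lines, with summed levels of 3.33 to 6.94 in naïve and 4.79 to 8.80 in primed libraries. Of 6 mesoderm and streak genes Eomes alone was tested, with sums of 3.08 to 4.25 and 9.09 to 15.3. Of 6 fibroblast genes Thy1 rose in both lines and Lum fell with mutant TET2, with sums of 5.58 to 7.75 and 2.48 to 4.90, and Col1a2, Col3a1 and Postn had 0 reads in every library. The part of these markers in the values of the cholesterol genes was not tested.

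The study introduced both TET2 constructs to ask what the catalytic activity of TET2 does after SETDB1 depletion. In both media 0 of the 7 genes were called between WT and mutant TET2 by limma, with 0 (naïve) and 2 (primed) at an unadjusted p under 0.05, beside 13.3% and 16.2% of all tested genes. Limma-voom on recovered reads also called 0 of 7 in each medium. Of all genes 0.0987% were called in naïve and 0.254% in primed ESCs (14 and 36 genes). Of the 36, 29 were higher with WT TET2 and 7 lower, a split that became 27 to 13 when libraries were centred on the median and 29 to 14 with quantile normalization. With the replicate number as a block, which paired the libraries in naïve ESCs, 36 genes were called there and still 0 of the 7. The expression of 5 of the 7 genes was lower with WT TET2 in each medium, as was that of 49.6% of all tested genes in naïve and 48.7% in primed ESCs.
For Insig1, which was not called, each mutant library exceeded each WT library in naïve ESCs (difference -0.17, 95% interval -0.47 to 0.12; limma, adjusted p = 0.596) and in primed ESCs (-0.50, -0.80 to -0.21; limma, adjusted p = 0.168). It was the only one of the 7 without overlap in either medium, a share no higher than the 16.8% of all genes in naïve and 22.4% in primed ESCs. Across the alternatives the adjusted p of the primed difference ran from 0.0964 to 0.583. Idi1 had a difference of -0.45 in primed ESCs (-0.87 to -0.03; limma, adjusted p = 0.279) and 0.07 in naïve ESCs. The 95% intervals of the 7 genes reached from -0.71 to 0.49 in naïve and from -0.87 to 0.54 in primed ESCs.
Among the 13 further enzymes limma and limma-voom called 0 in either medium, and 10 were lower with WT TET2 in naïve and 12 in primed ESCs. At an unadjusted p under 0.05 there were 3 in naïve ESCs (Pmvk at -0.68, Mvd at -0.54 and Tm7sf2 at -0.45) and 3 in primed ESCs (Msmo1 at -0.71, Tm7sf2 at -0.44 and Pmvk at -0.41), all lower with WT TET2 and chosen after their values were seen, or 23.1% of the 13 in each medium beside the 13.3% and 16.2% of all genes. Both tools also called 0 genes of sterol sensing, uptake, efflux and fatty acid synthesis. At an unadjusted p under 0.05 these lists held Npc2 and Mylip in naïve ESCs and Npc1, Npc2, Fads1 and Fads2 in primed ESCs, to be read against the same shares of all genes. The lines differed in other respects, since the WT line had the higher mean for 14 of 14 tested Y-linked genes in either medium (8 called in naïve and 9 in primed ESCs), with sums of 618 to 695 against 235 to 321 RPM in naïve and 466 to 601 against 141 to 241 in primed libraries. The part of this difference, and of the higher Tet2 transcript, in the values above was not tested.

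**Figure D5:**
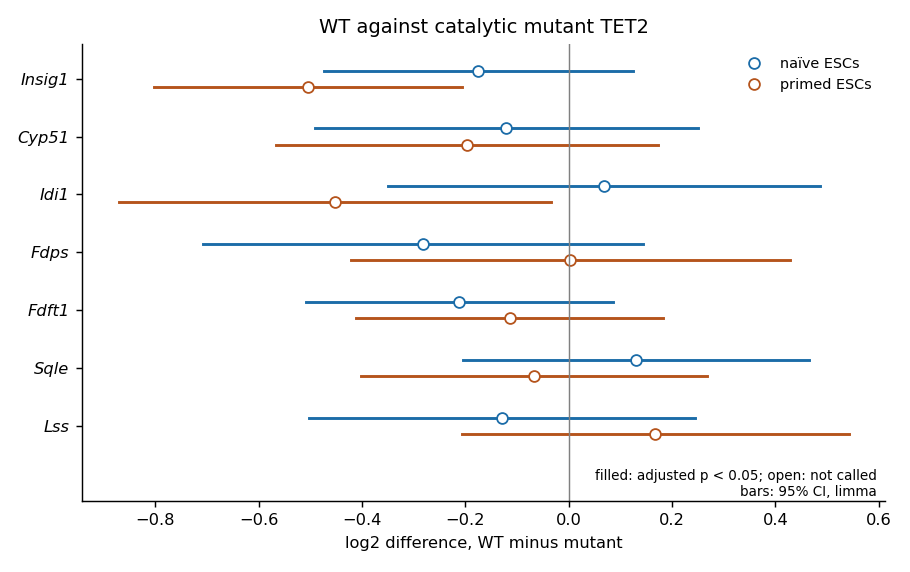
Difference in log2-scale expression between WT and catalytic mutant TET2 (horizontal axis) for the 7 genes (vertical axis) in naïve and primed ESCs, with 95% intervals from limma and open points for genes that were not called. All points are open, and Insig1 in primed ESCs lies furthest from 0, at -0.50.

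Insig1, Cyp51, Fdft1, Fdps and Idi1 varied together over the libraries, with r of 0.64 or more in each of their pairs, whereas Sqle had a negative r with each of the other genes and Lss had 0.50 or less. Over the 12 libraries the 21 gene pairs had a median Pearson r of 0.50, from -0.40 for Sqle with Fdps to 0.97 for Cyp51 with Insig1. Once the group means were removed, the median was -0.003 and 2 of 21 pairs exceeded 0.5, namely Idi1 with Cyp51 (0.61) and Fdps with Fdft1 (0.60). The first set of correlations follows the 2 media, and all share the scaling of the libraries.
The gene whose expression was most like the mean of the 7 over the 12 libraries was Npc2, at r = 0.99. Also among the 10 most alike were Slc1a5, Rcn1, Pla1a, Serpinb1a, Xaf1, Gm15462, Serpina3h and St3gal4, at 0.98 each. These 9 were higher in naïve ESCs in both lines, by 1.28 to 4.24 on the log2 scale, and 5% of all other tested genes had an r over 0.90. Within groups the 10 most like the mean included Wdr92, Parp12, Rars, Wdr36, Eif2s3x, Maoa, Med17, Nol10 and Fam166a, at 0.83 to 0.88. No gene was in both sets of 10, and none of the 10 within groups was among the lists of sterol and fatty acid genes. Of the 13 further enzymes, Dhcr7 (0.96), Nsdhl (0.96) and Ebp (0.95) followed the mean of the 7 most closely over the 12 libraries.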

How the data were processed

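Expression was measured in 12 poly(A) RNA-seq libraries, 3 in each of 4 groups set by the labels of rescue construct and medium. The authors trimmed reads with Trim Galore 0.3.3, aligned them to mm9 with TopHat2 2.0.9, placing reads with equally good positions at random, counted reads per gene and normalised them with DESeq2. The counter is not given in the sources used here. The deposited values are variance-stabilised and on a log2 scale, with the authors' size factors, and libraries were not pooled. The kit was non-directional.

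The transformation was inverted, with its lowest value of 3.81, and 100% of values came out as whole reads (tolerance 0.01). These gave the depth of 8066662 to 21335933 gene reads per library and RPKM values. Reads are not independent molecules, and counting error is smallest in the deepest libraries.

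Tests used limma 3.58.1 in R 4.3.3 on the deposited log2 values, with all 12 libraries in a 4-group fit, a variance trend and Benjamini-Hochberg adjustment over the 14185 genes with a mean at least 1 above the lowest value. Genes were called at an adjusted p under 0.05. The count model of the study could not be used on transformed values, so limma-voom on the recovered reads was an alternative. Others were no filter or a mean at least 3 above the lowest value, no trend, centring, quantile normalization, the 6 libraries compared, a replicate block, and each library left out.

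The replicate numbers come from the labels. Only in naïve ESCs did WT and mutant libraries sharing a number depart from their group means in the same way (r = 0.59, 0.30 and 0.39), so the block gave a paired fit there. On data simulated for the WT medium comparison with 14185 genes, 85 of 100 genes changed by 1 and 20 of 100 changed by 0.5 on the log2 scale were recovered, with 8 others called. The simulation changed 200 genes, far fewer than were called between media, so these shares do not carry over to the data.

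The 8 genes, the lists of other enzymes, sterol sensing, uptake, efflux, fatty acid synthesis and cell type markers, and the tests were chosen with earlier results of these data known. Genes named are the 8, those with the widest difference in each list, the 10 genes most like the mean of the 7 over 12 libraries and within groups, and Tet2 and Setdb1. Other list members, Ctsb and Y-linked genes were named after their values were seen. Transcripts were matched to mm9 with BLAST+ 2.17.0, and promoters come from RefSeq (GRCm38.p6). Tables and exact tests were made with pandas 2.3.3 and numpy 2.4.6 and figures with matplotlib 3.10.9, in Python 3.11.15. A table of repeat expression was not used here. Some genes of the lists of enzymes and uptake, and some of the genes most like the mean of the 7, are not reported here and are left out of the list counts.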

Additional observations from a re-analysis of the deposited data

How the results depend on the processing

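Calls among the 7 genes held under nearly all alternatives. Single-gene values kept their direction and their side of the threshold in 512 cases. Idi1 with mutant TET2 passed the threshold under quantile normalization (1 case), and 12 values, none of them called, changed sign. When centred on the median, the media difference of Sqle with WT TET2 became -0.0134 and the primed difference of Fdps between lines -0.0213. With quantile normalization they were -0.0109 and -0.0153. With a library left out, the media difference with WT TET2 was -0.0946 to 0.1173 for Sqle and -0.0361 to 0.179 for Lss. Between lines it was -0.13 to 0.1819 for Idi1 in naïve and -0.2146 to 0.1476 for Fdps in primed ESCs, and the interaction of Cyp51 was -0.1383 to 0.1892.

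Counts over all genes between the rescue lines moved more. In naïve ESCs the 14 calls became 5 with a mean at least 3 above the lowest value, 9 with the 6 libraries alone, and 36 with the replicate block. In primed ESCs the 36 calls became 23 and 18 under the first of these, and 209 with the replicate block, where the numbers do not pair the libraries (r = 0.16, -0.07 and 0.19). With a library left out, the counts were 5 to 14 in naïve and 12 to 82 in primed ESCs. The naïve count was 9 and 6 without WT replicates 2 and 3, and 5, 6 and 8 without mutant replicates 1, 2 and 3. The primed count was 12, 18 and 16 without WT replicates 1, 2 and 3, 14 without mutant replicate 1 and 82 without mutant replicate 3. The interaction had 12 calls with no filter and 0 to 1 with a library left out. Between media, the replicate block changed no call among the 7 genes (5 and 4 called) and took the calls over all genes from 5095 to 4785 with WT and from 4993 to 4677 with mutant TET2; it was not tabulated for the other lists, and the numbers did not pair the libraries across media (mean r = 0.12 and -0.09). The causes were not tested, beyond fewer libraries or other genes in the adjustment by construction. In simulated data 20 of 100 genes changed by 0.5 between media were recovered, which limits what small differences of Sqle and Lss can show.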
